A study of Livoneca redmanii with 3 samples.

Results

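Peptidases are enzymes that cut peptide bonds, and they are grouped by the chemistry of their active site into serine, cysteine, aspartic and metallo types. In crustaceans, trypsin-like serine peptidases are secreted by the digestive gland into the gut, related clip-domain serine peptidases circulate in the hemolymph and act in immune and clotting cascades, and cathepsins work mainly in lysosomes. Secreted inhibitors hold many of these enzymes in check. The 112 transcripts described here are those of the isopod Livoneca redmanii whose deposited annotation names zetaTry or ACE, or whose description contains a trypsin, serine-type endopeptidase, carboxypeptidase, aminopeptidase, astacin, cathepsin, cysteine-type or metallopeptidase term. Descriptions with ubiquitin, proteasome, chitin, reverse transcriptase, integrase or ribonuclease H were left out. The 112 transcripts came from 60 assembled genes and were drawn from 31922 distinct transcripts in all, of which 6324 carried an annotation.

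Livoneca redmanii is a cymothoid isopod that parasitises fish. Whole specimens, collected from Tilapia zilli in Lake Qarun, were sequenced as total RNA on an Ion Torrent S5 in 3 libraries. The low-temperature library came from animals brought to 10 °C. The low-salinity library came from animals brought gradually to 8 PSU, and the control library from animals at 35 PSU and 26 °C. The labels used here do not give the salinity of the low-temperature animals, the temperature of the low-salinity ones, the sex, the stage or the number of specimens per library. Each condition had 1 library, so none of the differences could be checked against replicates or tested, and every interval is a 95% interval for counting error only. Values are estimated counts per assembled transcript (contig). Contig lengths were not used here, so counts are compared between libraries and do not rank the expression of different transcripts.

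The libraries stood apart before any peptidase was considered. They summed to 2782324 counts in low temperature, 1434390 in low salinity and 2142836 in control. Transcripts with a mobile-element term, such as reverse transcriptases, took 4.64% of all counts in low temperature, 55.0% in low salinity and 48.4% in control. Animal tissue markers, not all of them particular to arthropods, lay the opposite way, with nearly all counts in low temperature. The hemocyanin, vitellogenin, tropomyosin and cuticle protein transcripts, 35 in number, summed to 29262 counts in low temperature, 10 in low salinity and 15 in control. In low salinity 29 of the 35 had no count, and in control 29. Myosin heavy chain, also looked up as a tissue marker, matched no transcript. Of 8 terms for fish host tissue, 7, among them hemoglobin, keratin and parvalbumin, matched no transcript. The remaining term, fibrinogen, matched 4 transcripts of fibrinogen-related domains, a family that arthropods also have, with 122 counts in low temperature, 0 in low salinity and 2 in control. The part of these library differences in the peptidase values below was not tested. In whole animals, fewer cells of a type and less RNA per cell cannot be told apart.

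The low-temperature library held nearly all peptidase counts. The 112 transcripts summed to 15858 counts in low temperature, 17 in low salinity and 34 in control. As shares of each library these were 0.570% in low temperature (exact binomial interval 0.561% to 0.579%), 0.00119% in low salinity (0.000690% to 0.00190%) and 0.00159% in control (0.00110% to 0.00222%). At least 1 count was recorded for 111 of the 112 in low temperature, 8 in low salinity and 12 in control, and 94 were at 0 in both low salinity and control. More than 3 counts were recorded for 111 in low temperature, 1 in low salinity and 3 in control. The share with a count was thus 99.1% in low temperature, 7.14% in low salinity and 10.7% in control. Among the 5185 other annotated transcripts without a mobile-element term it was 97.8% in low temperature, 9.72% in low salinity and 12.7% in control. More than 3 counts were recorded for 99.1% of the peptidase transcripts in low temperature, 0.893% in low salinity and 2.68% in control, and for 96.7% of the other annotated ones in low temperature, 4.82% in low salinity and 5.86% in control.

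**Figure D1:**
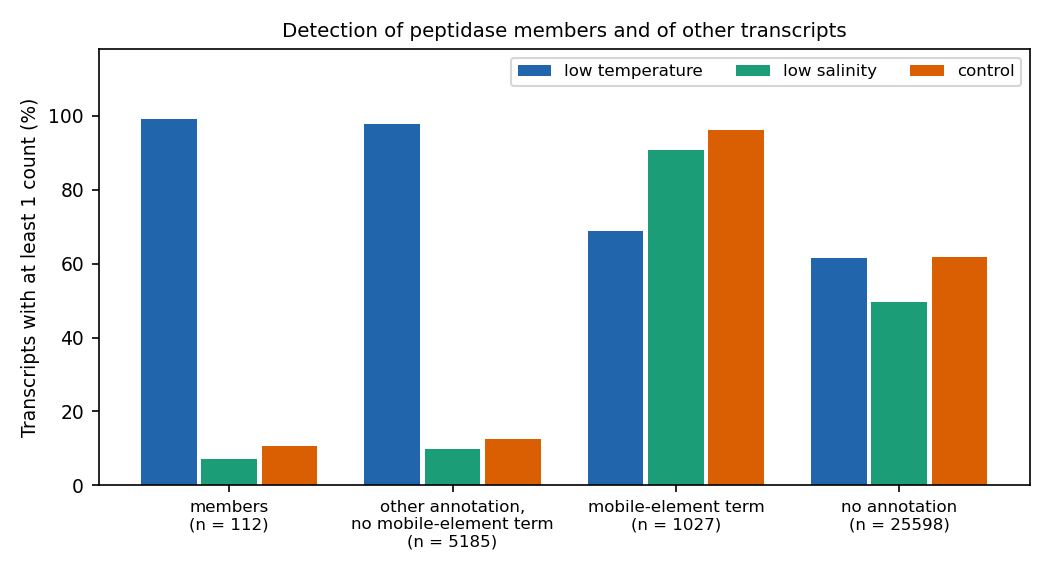
Bars give the percentage of transcripts with at least 1 count in the low-temperature, low-salinity and control libraries, for the 112 peptidase transcripts (members) and for 3 other annotation sets, with the number of transcripts under each set. Peptidase transcripts stand at 99.1%, 7.14% and 10.7%, beside 97.8%, 9.72% and 12.7% for the other annotated transcripts, while transcripts with a mobile-element term stand at 68.8%, 90.7% and 96.1%.

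Classes were set by annotation text, so some serine carboxypeptidases stand in the carboxypeptidase class. The serine class was the largest, with 52 transcripts of 28 genes. It had 10886 counts in low temperature, 11 in low salinity and 20 in control, and it made up 68.6% of the low-temperature peptidase counts. The cysteine class, 22 transcripts of 12 genes, had 1622 counts in low temperature, 1 in low salinity and 3 in control. The class of other metallopeptidases, 11 transcripts of 2 genes, had 1326 counts in low temperature, 0 in low salinity and 2 in control. Carboxypeptidases, 5 transcripts, had 328 counts in low temperature, 0 in low salinity and 1 in control, and aminopeptidases, 6 transcripts, had 347 counts in low temperature and 0 in both low salinity and control. The aspartic class, 4 contigs of 1 gene, had 138 counts in low temperature, 2 in low salinity and 0 in control. All of these classes were higher in low temperature than in low salinity and control. The lowest scaled ratio or floor-based fold against control was that of the aspartic class, 137-fold higher in low temperature (exact lower limit 110). Here and below a fold against a library at 0 uses a floor of 3 counts for that library. Such a fold is not a lower limit for counting error. All folds, ratios and exact limits also rest on the main (TMM) scaling of the libraries. For low temperature against control, total-count and upper-quartile scaling would move their log2 values by -1.95 and -2.47. The exact limits are therefore no firm minimum. No description contained astacin. The last class held 12 transcripts whose text contains the word inhibitor, with 1211 counts in low temperature, 3 in low salinity and 8 in control.

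**Figure D2:**
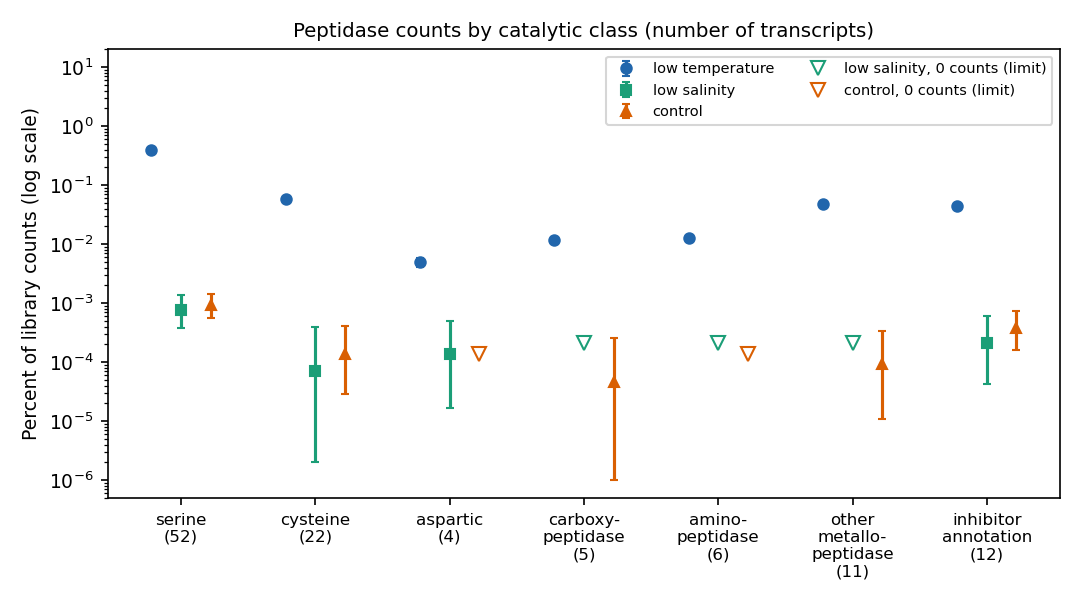
Points give the percentage of all counts of each library (log scale) taken by each catalytic class in low temperature, low salinity and control, with exact binomial 95% intervals for counting error; open triangles mark classes with 0 counts, drawn at the limit of 3 counts. Low temperature lies above the other libraries in all 7 classes, and the intervals of low salinity and control overlap wherever both have counts.

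Among the serine peptidases, gene TRINITY_DN146_c0_g1 had the most counts of any gene in the set. Its 9 member contigs summed to 5032 counts in low temperature, 4 in low salinity and 0 in control, 31.7% of the low-temperature peptidase counts. With the floor, the gene was 4987-fold higher in low temperature than in control (exact lower limit 4054). Against low salinity, with 4 counts, it was 1858-fold higher. The contigs are described as serine-type endopeptidases or secreted trypsin-like serine proteases, and 2 of them, TRINITY_DN146_c0_g1_i3 and i11, were also listed as TMPRSS5. The contig TRINITY_DN146_c0_g1_i10 had 1355 counts in low temperature (1284 to 1429 by the exact Poisson interval), 0 in low salinity and 0 in control. TRINITY_DN146_c0_g1_i26 had 824 counts in low temperature, 3 in low salinity and 0 in control. Both were high in low temperature alone, and no contig of this gene had a count in control. The lowest member contig had 125 counts in low temperature.

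The transcript named zetaTry, after a trypsin of Drosophila, was TRINITY_DN90_c0_g1_i7. It had 1749 counts in low temperature (1668 to 1833), 0 in low salinity and 9 in control, the highest single count of the set in low temperature and in control. The scaled ratio of low temperature to control was 578 (exact conditional interval 304 to 1266). The other member contigs of its gene, TRINITY_DN90_c0_g1_i2 and i3, had 32 and 22 counts in low temperature, 0 and 0 in low salinity, and 2 and 0 in control. Contigs of the same gene that are annotated as TMPRSS9 and are not members added counts in low salinity: over all 8 contigs the gene had 2171 counts in low temperature, 6 in low salinity and 11 in control.

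Transcripts named TMPRSS11D, after an airway trypsin-like protease of mammals, came from 2 genes and held several of the peptidase counts of control. TRINITY_DN48_c0_g1 had 842 counts in low temperature, 0 in low salinity and 4 in control over 3 member contigs. TRINITY_DN48_c0_g2 had 376 counts in low temperature, 0 in low salinity and 4 in control over 2 member contigs. The contig TRINITY_DN48_c0_g1_i9 had 546 counts in low temperature, 0 in low salinity and 0 in control. TRINITY_DN48_c0_g2_i9 had 271 counts in low temperature, 0 in low salinity and 4 in control, a ratio of low temperature to control of 201 (77.8 to 745), and TRINITY_DN48_c0_g1_i4 had 86 counts in low temperature, 0 in low salinity and 3 in control, a ratio of 85.2 (28.2 to 421). These were the member contigs with the most control counts after zetaTry, apart from A2ML1 below.

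Among the members, clip-domain names, CLIPA1, CLIPA3, CLIPA10 and CLIPD6, stood on 7 transcripts of 4 genes. In insects such proteins act in the cascades that lead to melanization and antimicrobial defence, and CLIPA proteins are often inactive homologues. The 7 member transcripts summed to 1315 counts in low temperature, 1 in low salinity and 0 in control, 1303-fold higher in low temperature than in control with the floor. The range over these 7 transcripts was 19 to 492 counts in low temperature. Clip-domain names also stood on contigs outside the rule. Of these, CLIPA10 (TRINITY_DN116_c0_g1_i3) had 1515 counts in low temperature, 1 in low salinity and 0 in control. Its gene had 1967 counts in low temperature, 1 in low salinity and 2 in control over all contigs. Over its member contigs it had 378 in low temperature and 0 in both low salinity and control. The gene TRINITY_DN195_c0_g1, with CLIPA1 and CLIPA10 names, had 1291 counts in low temperature and 0 in both low salinity and control over 4 member contigs, of which 1 carries neither name. Elsewhere in the serine class, TRINITY_DN649_c0_g1, with 6 member contigs of which 1 is named CELA2A after a vertebrate elastase, had 308 counts in low temperature, 5 in low salinity and 0 in control. All 5 low-salinity counts fell on TRINITY_DN649_c0_g1_i8, which had 114 counts in low temperature.

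**Figure D3:**
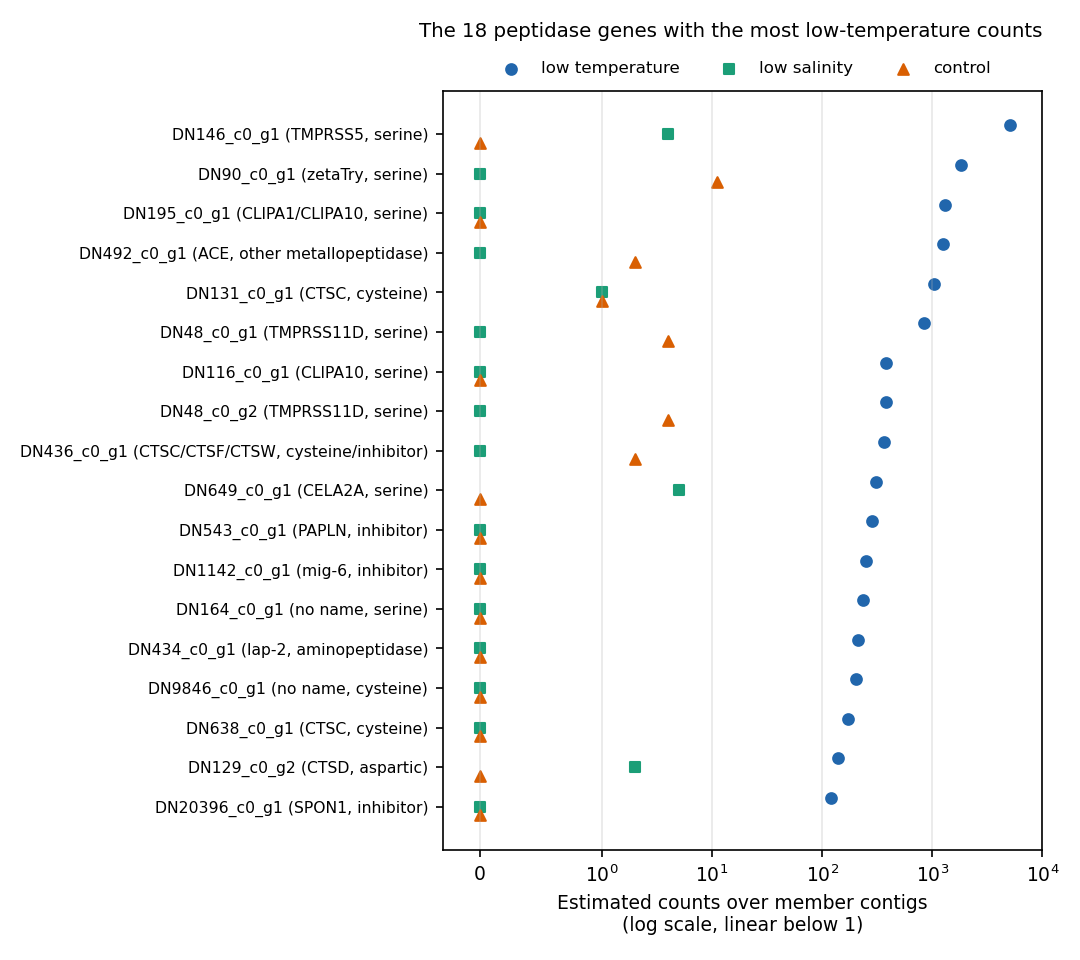
Each row is 1 of the 18 assembled genes with the most low-temperature counts over member contigs. Points give its estimated counts, summed over member contigs, in low temperature, low salinity and control (log scale, linear below 1, with points offset vertically). Low temperature ranges from 121 to 5032 counts, while no gene exceeds 5 counts in low salinity or 11 in control.

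Cysteine peptidases were led by transcripts named CTSC, cathepsin C, a lysosomal dipeptidyl peptidase that in mammals activates serine proteases. Over all listings of a transcript, 17 members of 5 genes carried this name, with 1553 counts in low temperature, 0 in low salinity and 2 in control. Of these, 4 are also listed as CTSF and fall in the inhibitor class below. The gene TRINITY_DN131_c0_g1, in which 5 contigs are named CTSC and the others have no name, had 1043 counts in low temperature, 1 in low salinity and 1 in control over 7 contigs. Within it, TRINITY_DN131_c0_g1_i8 had 438 counts in low temperature (398 to 481) and TRINITY_DN131_c0_g1_i2 had 204, both with 0 in low salinity and 0 in control. The counts of the other libraries fell on TRINITY_DN131_c0_g1_i4, with 71 counts in low temperature, 1 in low salinity and 1 in control. A second CTSC gene gave TRINITY_DN638_c0_g1_i3, with 88 counts in low temperature and 0 in both low salinity and control. The unnamed cysteine-type peptidase TRINITY_DN9846_c0_g1_i1 had 202 counts in low temperature and 0 in both low salinity and control. With the floor it was 200.2-fold higher in low temperature than in control (exact lower limit 161).

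The aspartic class was cathepsin D, CTSD, a lysosomal aspartic protease. TRINITY_DN129_c0_g2_i1 had 45 counts in low temperature, 2 in low salinity and 0 in control, and TRINITY_DN129_c0_g2_i3 had 43 counts in low temperature and 0 in both low salinity and control. The gene was larger than the members show, since its 11 contigs summed to 1049 counts in low temperature, 2 in low salinity and 4 in control. The contigs with the most counts were no members, since their descriptions did not meet the rule: TRINITY_DN129_c0_g2_i6, named cathD, had 523 counts in low temperature, and TRINITY_DN129_c0_g2_i9, named CTSE, had 237.

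Metallopeptidases were represented mainly by ACE, angiotensin-converting enzyme, which removes dipeptides from the end of peptides and in insects is a soluble enzyme. All 10 contigs with this name belonged to the gene TRINITY_DN492_c0_g1, with 1257 counts in low temperature, 0 in low salinity and 2 in control. TRINITY_DN492_c0_g1_i15 had 714 of the low-temperature counts (663 to 768), with 0 in low salinity and 0 in control. With the floor it was 708-fold higher in low temperature than in control (exact lower limit 574). TRINITY_DN492_c0_g1_i2 had 139 counts in low temperature and 0 in both low salinity and control. The remaining transcript of this class, TRINITY_DN1207_c0_g1_i1, with 69 counts in low temperature and 0 in both low salinity and control, is named PA2G4. This is a growth-related protein with a metallopeptidase-like fold that is not known as an active peptidase.

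The carboxypeptidase and aminopeptidase classes had smaller counts than the serine, cysteine and other metallopeptidase classes. Among the carboxypeptidases, SCPEP1 (TRINITY_DN32067_c0_g1_i1), a serine carboxypeptidase, had 106 counts in low temperature and 0 in both low salinity and control. The contigs of prss16, TRINITY_DN19159_c0_g1_i1 and i2, of a family of serine carboxypeptidases, had 66 and 30 counts in low temperature and 0 in both low salinity and control. Of the aminopeptidases, the cytosolic leucine aminopeptidases lap-2 (TRINITY_DN434_c0_g1_i3) and LAP3 (TRINITY_DN1995_c0_g1_i3) had 210 and 99 counts in low temperature and 0 in both low salinity and control. ENPEP (TRINITY_DN66832_c0_g1_i1), glutamyl aminopeptidase, had 14 counts in low temperature and 0 in both low salinity and control, and an unnamed aminopeptidase (TRINITY_DN44475_c0_g1_i1) had 13 counts in low temperature and 0 in both low salinity and control.

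Transcripts with an inhibitor annotation were of 2 kinds. CTSF, cathepsin F, is a cysteine peptidase, and its 4 contigs, each also listed as CTSC, entered this class because a description of each reads as an inhibitor of cysteine peptidases. They had 345 counts in low temperature, 0 in low salinity and 2 in control. With these moved, the cysteine class had 1967 counts in low temperature, 1 in low salinity and 5 in control. Of these contigs the one with the most counts, TRINITY_DN436_c0_g1_i11, had 158 counts in low temperature and 0 in both low salinity and control. The other 8 transcripts of the class had 866 counts in low temperature, 3 in low salinity and 6 in control. Among them were PAPLN, papilin, an extracellular matrix protein with inhibitor domains (TRINITY_DN543_c0_g1_i1 with 285 counts in low temperature and 0 in both low salinity and control, and TRINITY_DN18850_c0_g1_i1 with 101 counts in low temperature and 0 in both low salinity and control), and mig-6, the papilin of Caenorhabditis elegans (TRINITY_DN1142_c0_g1_i2 with 249 counts in low temperature and 0 in both low salinity and control). The others had lower counts: SERPINB11, a serpin, had 91 counts in low temperature, the matrix protein SPON1 had 77 and 44 on its contigs, and ITIH3, a heavy chain of the inter-alpha-trypsin inhibitor family, had 19, all with 0 in low salinity and control.

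A2ML1 was the exception to the pattern of the set. This transcript (TRINITY_DN1874_c0_g2_i1), named after a relative of the broad protease inhibitor alpha-2-macroglobulin, had 0 counts in low temperature, 3 in low salinity and 6 in control. It was the member without a count in low temperature. With the main scaling, the ratio of low temperature to control had an interval of 0 to 2.53. That of low salinity to control was 1.01 (0.163 to 4.71). Both intervals include equal levels. For low temperature against control this depends on the scaling. Total-count and upper-quartile scaling move the log2 ratios by -1.95 and -2.47, and the interval would then lie below equal levels.

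How cooled animals differ from control animals was the question of the low-temperature comparison. A filter on low values kept transcripts that averaged 10 or more counts across the 3 libraries, and 76 of the 112 peptidase transcripts passed it. Of the 36 that did not, 35 had 28 or fewer counts in low temperature and the other was A2ML1. Just inside the filter were prss16 (TRINITY_DN19159_c0_g1_i2, 30 counts in low temperature) and CTSC (TRINITY_DN638_c0_g1_i2, 31), and just outside were TRINITY_DN62502_c0_g1_i1 (28) and BLMH (TRINITY_DN22803_c0_g1_i1, 27), each with 0 in the other libraries. All 76 passed only through their low-temperature counts, and 63 had counts in no other library. They had to be higher there, so their count is a description. All 76 were past the 2-fold rule (a scaled ratio of 2 or more) upward in low temperature, against 49.6% of all 8563 transcripts that passed the filter and 93.1% of the 2722 other annotated ones without a mobile-element term. At least 2-fold lower were none of the 76, 43.0% of the 8563 and 6.14% of the 2722. The median log2 ratio of scaled counts was 8.33 for the 76 and 7.75 for those 2722, or 6.50 and 5.96 with counts below 3 set to 3, and 0.83 over all 8563 (0.89 with that floor). Summed over all 112, with no filter, the scaled ratio of low temperature to control was 1387 (992 to 2003). Scaling libraries by total counts moves the log2 ratios of this comparison by -1.95, upper-quartile scaling by -2.47 and median-of-ratios scaling by 0.96. The median over all 8563 then becomes -1.04, -1.54 and 1.77.

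For animals at 8 PSU the peptidases could hardly be compared with control. The 112 transcripts had 17 counts in low salinity, against 34 in control, and the scaled ratio of low salinity to control was 1.01 (0.527 to 1.85). Of the 76 transcripts, 4 were past the 2-fold rule upward in low salinity and 8 downward, which is against 5.62% upward and 13.3% downward of all transcripts that passed the filter, and 4.85% upward and 7.53% downward of the other annotated ones without a mobile-element term. Of all transcripts, 3.91% were upward and 20.3% downward with total-count scaling, and 8.37% upward and 11.6% downward with upper-quartile scaling. Most of the peptidase calls rest on 1 to 3 counts. A count in both libraries was recorded for 2 transcripts, which is 25% of the 8 with a count in low salinity and 16.7% of the 12 with a count in control. Of the 8, 7 had only 1 to 3 counts in low salinity, and of the 12, 9 had only 1 to 3 in control. At such counts the overlap cannot show whether the libraries hold different peptidases, and the same share over all transcripts is not given here. TRINITY_DN649_c0_g1_i8, with 5 counts in low salinity and 0 in control, had a ratio of at least 1.85 by its interval. zetaTry, with 0 counts in low salinity and 9 in control, had a ratio of at most 1.02, and TRINITY_DN48_c0_g2_i9, with 0 in low salinity and 4 in control, of at most 3.05. A transcript at 0 may hold up to 0.000209% of the counts in low salinity and 0.000140% in control by the floor of 3 counts.

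Low salinity and low temperature were compared directly as well. All 76 transcripts were at least 2-fold lower in low salinity, against 49.9% of all transcripts that passed the filter and 93.2% of the other annotated ones without a mobile-element term. At least 2-fold higher were 41.8% of all and 5.77% of the other annotated ones. With TMM factors from the transcripts that passed the filter, 56.0% of all were lower and 30.4% higher. Upper-quartile scaling gave 46.8% lower and 50.5% higher, and total-count scaling 47.9% of each. Over the 76 the median log2 ratio of scaled counts was -8.36, or -5.47 with the floor, and -0.96 over all 8563. That median over all was 1.31 with upper-quartile and 0.17 with total-count scaling. Over all 112, the scaled ratio of low salinity to low temperature was 0.000726 (0.000423 to 0.00116). This comparison shares its low-temperature library with the comparison of low temperature with control.

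The counts were concentrated in few genes. By member contigs, the 3 genes with the most low-temperature counts were TRINITY_DN146_c0_g1, TRINITY_DN90_c0_g1 and TRINITY_DN195_c0_g1. They held 51.2% of the low-temperature peptidase counts, and the first 10 held 80.0%. Over all contigs of a gene the order differs. TRINITY_DN146_c0_g1 (5738 counts in low temperature) was then followed by TRINITY_DN48_c0_g1 (2569), TRINITY_DN90_c0_g1 (2171), TRINITY_DN116_c0_g1 (1967) and TRINITY_DN195_c0_g1 (1331). Of the 60 genes, 43 had a single member contig, 13 had 2 to 5 and 4 had more. Contigs of a gene can be near-identical forms of 1 transcript or close paralogs, and the split of counts between them is uncertain. In TRINITY_DN90_c0_g1 the zetaTry contig held 97.0% of the member counts, while in TRINITY_DN146_c0_g1 the contig with the most counts held 26.9%. With all 163 contigs of the 60 genes included, the sums were 22945 in low temperature, 25 in low salinity and 46 in control. No gene of the set held a contig with a mobile-element term.

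**Figure D4:**
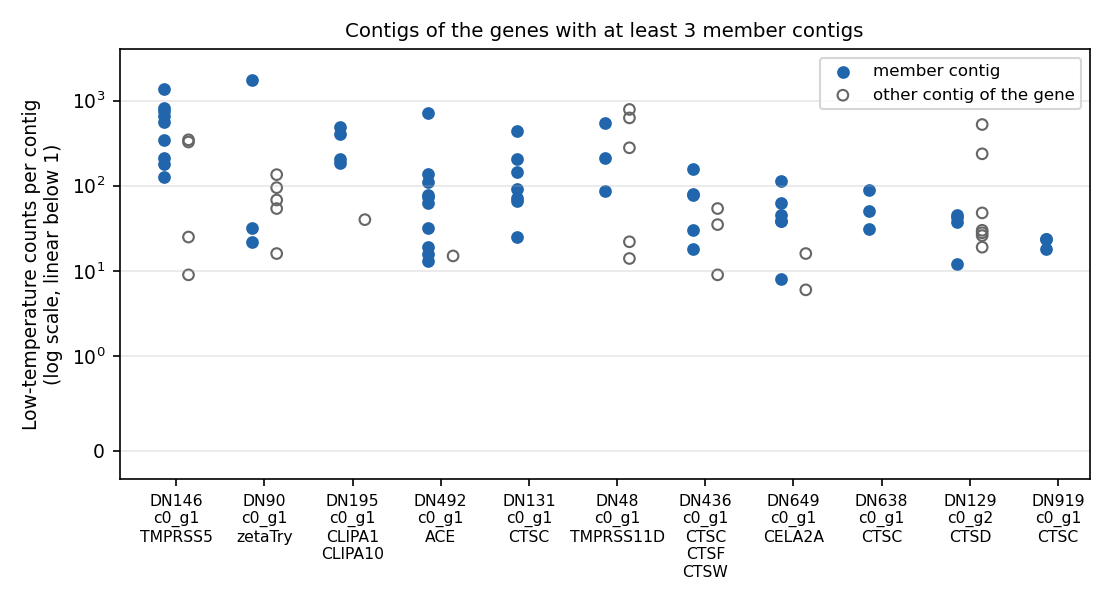
Each point is 1 contig of a gene with at least 3 member contigs, placed at its low-temperature count (log scale, linear below 1); filled points are member contigs and open points other contigs of the same gene. In TRINITY_DN146_c0_g1 the member contigs range from 125 to 1355 counts, while in TRINITY_DN90_c0_g1 1 contig with 1749 counts stands over the rest.

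Not every member is a secreted enzyme. Names of proteins that work inside cells or are not known as active peptidases, such as the SUMO proteases SENP1 and SENP6, mitochondrial CLPP, bleomycin hydrolase BLMH, the catalytically altered calpain CAPN6 and PA2G4, stood on 11 transcripts with 517 counts in low temperature, 0 in low salinity and 2 in control. By the pathway column of the deposited annotation, 27 transcripts of 10 genes belonged to Apoptosis (2056 counts in low temperature, 3 in low salinity and 3 in control). Lysosome held 26 transcripts of 9 genes (2016 counts in low temperature, 4 in low salinity and 3 in control). Renin-angiotensin system held 12 transcripts of 3 genes (1285 counts in low temperature, 1 in low salinity and 2 in control). Protein digestion and absorption held 6 transcripts of 5 genes (2150 counts in low temperature, 0 in low salinity and 10 in control). Pancreatic secretion had the same values as Protein digestion and absorption. A transcript can belong to several of these pathways. For 60 transcripts no pathway was given.

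The database proteins to which the members were matched were mostly from animals. Insect or myriapod matches stood on 44 transcripts with 40.2% of the low-temperature peptidase counts, a water flea match on 8 with 20.3%, and matches from vertebrates other than ray-finned fish on 33 with 21.0%. Matches from ray-finned fish stood on 2 transcripts, ENPEP and NPEPPS, with 18 counts in low temperature and 0 in low salinity and control. Bacterial matches stood on 4 transcripts with 1207 counts in low temperature, 1 in low salinity and 0 in control. Of these 4, TRINITY_DN146_c0_g1_i29, with 757 counts in low temperature, 1 in low salinity and 0 in control, and TRINITY_DN146_c0_g1_i34, with 348 counts in low temperature and 0 in both low salinity and control, belong to an assembled gene whose other member contigs matched arthropods.

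Inhibitors and other digestive enzymes outside the set also had most of their counts in low temperature, as other annotated transcripts did: 93.1% of those that passed the filter were past the 2-fold rule upward, with a median log2 ratio of 7.75. Of 12 further transcripts with serpin, Kazal, cystatin, alpha-2-macroglobulin or similar text, all 12 passed the filter and all were past the 2-fold rule upward in low temperature, with a median log2 ratio of 7.93 and with 1362 counts in low temperature, 1 in low salinity and 0 in control. The Kazal-type inhibitor TRINITY_DN537_c0_g1_i1 had 605 counts in low temperature and 0 in both low salinity and control. This list also holds TRINITY_DN51497_c0_g1_i1, with 63 counts in low temperature and 0 in both low salinity and control. It entered by its cystatin text but is named CTSF, a cysteine peptidase. Of 24 transcripts of lipases, amylases and glycosidases without mobile-element text, 11 passed the filter and all 11 were higher, with a median of 7.70 and with 1448 counts in low temperature, 11 in low salinity and 10 in control. A transcript named LPL (TRINITY_DN1037_c0_g1_i16), a lipase, had 473 counts in low temperature and 0 in both low salinity and control. The GDSL-type lipase TRINITY_DN7080_c6_g1_i1 held all 11 low-salinity counts of this list, against 4 counts in low temperature and 8 in control.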

How the data were processed

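For 3 libraries of whole animals, 1 per condition, the authors deposited a table of estimated counts for each assembled transcript, given as whole numbers. The submitters' processing notes name Salmon 1.10.2, fastp 0.23.2 and FastQC 0.11.9. Which assembler and annotation tool made the contigs and names was not stated there. The count table has 33093 rows for 31922 distinct transcripts, since some transcripts are listed more than once, with the same counts each time, and each was used once; members had 126 listings that met the rule. A second deposited table holds a normalized signal (1 contig for each of 26084 genes) and served as an alternative for named transcripts; its values were whole multiples of 1 factor per library, within 0.01, for 100% of genes, and with 1 library per condition no count test could be run on those reads. The authors' comparison tables were not used.

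Log2 ratios used TMM (trimmed mean of M-values) scaling in edgeR 4.0.16 (R 4.3.3) with factors from the whole table (0.449 for low temperature, 1.29 for low salinity, 1.73 for control), a prior count of 0.5, and transcripts averaging 10 or more counts. The size rule was an absolute log2 ratio of at least 1. Intervals are exact (Poisson, Clopper-Pearson binomial, or conditional binomial for ratios; scipy 1.17.1) at 95%, and the floor is 3 counts. They cover counting error only, as amplified reads are not independent molecules. The ratio step was tested on simulated data in which 200 transcripts changed 4-fold and the rest did not change. Far more transcripts differ between the libraries here, so that test does not bear on the choice of scaling. Named transcripts are the 4 with the most counts in each class (at most 2 per gene), zetaTry, ACE, and the 8 with the most counts in control and low salinity together, of which 1 is not reported here; others named by gene or name were chosen after their values were seen. Class was set by the first matching term of the text, and 2 serine-type carboxypeptidases therefore count as serine. Those described as serine carboxypeptidase (SCPEP1 on TRINITY_DN32067_c0_g1_i1, and prss16) count as carboxypeptidases. ABHD3, described as a serine aminopeptidase, counts as an aminopeptidase. The classes therefore do not fully separate active-site chemistry. The mobile-element terms were reverse transcriptase, integrase, ribonuclease H, RNase H, transpos, retro, endonuclease, mobile element, jockey and K02A2. Database matches were grouped by hand from the taxon number of the seed ortholog, of the first listing. Members, lists and rules were chosen with earlier results of these data known.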

Additional observations from a re-analysis of the deposited data

How the results depend on the processing

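No paired analysis was possible because each condition has 1 library. The count of members past the size rule, 76 both between low temperature and control and between low salinity and low temperature, stayed 76 with median-of-ratios, total-count and upper-quartile scaling, a prior count of 2, and TMM factors from the tested transcripts only, an alternative chosen after the data were seen. Since all 76 passed the filter only through low temperature, this count was fixed by the filter and says nothing on stability. It became 26 and 26 when an average of 50 counts was required, and 38 and 38 when contigs were summed per gene, since fewer features are tested, and 112 and 112 without a filter, where A2ML1 went the other way. For low salinity against control, 12 members past the rule became 5 at that stricter filter, again with fewer tested. They became 5 with a prior count of 2, which draws ratios of 1 to 3 counts towards 0. The shares of all transcripts past the rule with these filters, this prior count and sums per gene are not given here. Whether the members moved as all transcripts did can therefore not be read from these counts. The log2 ratio of summed counts, low temperature against control, was 10.44 and became 11.40, 8.49, 7.97 and 12.03 with median-of-ratios, total-count, upper-quartile and tested-transcript TMM scaling, by construction of the factors. That of low salinity against control stayed between -0.42 and 0.22, within its interval of -0.92 to 0.89. Among counts with an annotation and no mobile-element term, the members took 3.51% in low temperature, 0.0145% in low salinity and 0.0190% in control. Leaving out genes with a mobile-element contig removed none. For the 27 named transcripts that passed the filter, all 119 alternative log2 ratios of low temperature against control, 11 of them from the authors' normalized values, had the direction of the main value, the lowest at 3.76; the filter chose these transcripts in the same way. In low salinity 1 member and in control 3 members exceeded 3 counts, so differences of single members between these libraries rest on few counts.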

Other observations

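Peptidase text outside the rule stood on 108 further transcripts, a set chosen after the data were seen. They summed to 11139 counts in low temperature, 81 in low salinity and 225 in control. Most counts came from 34 transcripts described as peptidase S1 family or transmembrane serine proteases, with 6617 counts in low temperature, 9 in low salinity and 4 in control. Among them CLIPA10 (TRINITY_DN116_c0_g1_i3), of the clip-domain serine peptidases, had 1515 counts in low temperature, 1 in low salinity and 0 in control, and TMPRSS6 (TRINITY_DN48_c0_g1_i11) had 786 counts in low temperature and 0 in both low salinity and control. Metalloendopeptidases, with names such as MMEL1 and Nep5 of the neprilysin family of peptide-degrading enzymes, stood on 17 transcripts with 1123 counts in low temperature, 1 in low salinity and 7 in control.

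A small group had fewer counts in low temperature than in control. The 6 transcripts described as Aspartyl protease or as a putative peptidase with the domain DUF1758 had 43 counts in low temperature, 68 in low salinity and 205 in control, and none of them was at 0 in control. Of the 4 that passed the filter, 3 were at least 2-fold lower in low temperature than in control, against 43.0% of all transcripts that passed it. The other, TRINITY_DN945_c0_g1_i4, with 28 counts in low temperature, 18 in low salinity and 41 in control, was higher in low temperature after scaling, at a log2 ratio of 1.01. These calls depend on the scaling, as do those of all transcripts that passed the filter. The number lower was 1 with median-of-ratios scaling (37.0% of all), 3 with total-count scaling (50.1%) and 4 with upper-quartile scaling (51.3%). With TMM factors from the transcripts that passed the filter it was 0 (32.0% of all). TRINITY_DN6313_c0_g1_i1 had 4 counts in low temperature, 39 in low salinity and 69 in control, and TRINITY_DN258_c0_g1_i13 had 6 counts in low temperature, 0 in low salinity and 43 in control. The first of these also has a listing with a mobile-element term, and whether the others belong to mobile elements was not tested.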
